A study of Rattus norvegicus with 120 samples.

Results

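The chronic-stage saline controls were 19 male Wistar albino rats in which no seizures had been induced, 9 injected in infancy and 10 injected as adults. They were chosen by their labels, as the controls of the chronic stage with raw counts, with earlier results of these data known. They make up 19 of the 114 libraries with counts in the series (120 are labelled). Comparing them asks how far the hippocampal miRNAs of the reference animals already differed between the arms against which early and late epilepsy were read. A miRNA was tested when it had more than 500 raw reads summed over the chronic libraries, which kept 442 of 653.

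In the whole study, status epilepticus (SE) was induced with pilocarpine, a muscarinic agonist, and hippocampal small RNA was sequenced at an acute, a latent and a chronic stage. Infancy-arm controls were injected with saline at P12 and adult-arm controls at P60, where P is the postnatal day. All of them, like the SE rats, had received LiCl the day before, and all were sampled 3 months later, when they were about 3.4 and 5 months old. The entire hippocampus of both hemispheres was used, so a level averages over all of its cell types, and fewer cells of a type cannot be told apart from less RNA per cell. One further infancy-arm control was not analysed here. The arms therefore differed in age at injection, in age at sampling and in the range of library numbers (3-S31 to 3-S40 against 3-S6 to 3-S20), and these cannot be told apart. Whether controls received paraldehyde, given after convulsive SE in treated rats, is not stated in the sources used here.

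A miRNA is a short RNA cut from a hairpin precursor that guides Argonaute proteins to messenger RNAs, mostly through its seed (bases 2 to 8). One strand of the hairpin, the guide, usually accumulates while the other, the passenger, is mostly degraded. The let-7 family, which includes miR-98, is known for rising as animal tissues mature, and its 5p strands are the guides. Both strands are counted separately in these data.

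With edgeR the control arms differed in 9 miRNAs, each of them higher in the infancy arm. This is 2.04% of the 442 miRNAs tested (edgeR quasi-likelihood test, adjusted p under 0.05), and 0 were lower. Of the 9, 5 were passenger strands of let-7 family hairpins, and the others were miR-1839-5p, miR-350, miR-497-5p and miR-7a-1-3p. Without the adjustment, 99 miRNAs had a p under 0.05, 52 higher and 47 lower. Under the thresholds of the study (p under 0.05, taken here as unadjusted, and a fold change of at least 1.4), 79 passed, 41 higher and 38 lower, which is 17.9%. Whether lower miRNAs were called depended on the test. DESeq2 made 36 calls, 24 higher and 12 lower, and limma voom with sample weights 148, 76 higher and 72 lower. Both sets held all 9.

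The mature sequences of the called miRNAs are given first, since several of them are related. They are RefSeq entries of build GRCr8, printed 5′ to 3′ with the seed in capitals.

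miR-98-3p: cUAUACAAcuuacuacuuucc
let-7b-3p: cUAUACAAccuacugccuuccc
let-7a-1-3p: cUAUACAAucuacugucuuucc
let-7c-2-3p: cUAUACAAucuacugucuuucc
let-7d-3p: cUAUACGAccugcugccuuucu
miR-1839-5p: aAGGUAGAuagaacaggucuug
miR-350: uUCACAAAgcccauacacuuucac
miR-497-5p: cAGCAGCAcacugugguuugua
miR-7a-1-3p: aCAACAAAucacagucugccau

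Of the let-7 family passengers, 4 have the same seed, UAUACAA, and let-7d-3p has UAUACGA. let-7a-1-3p and let-7c-2-3p are the same sequence from different hairpins, their reads over the 19 controls summed to 29152 and 29154, and so they were counted from nearly the same reads. The 9 calls thus rest on 8 distinct sequences. The guide strand of the same family shows a different seed, as in let-7b and miR-98.

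let-7b-5p: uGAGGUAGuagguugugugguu
miR-98-5p: uGAGGUAGuaaguuguauuguu

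The called let-7 family passengers come from 3 chromosomes. let-7b-3p (chr7:118684098-118684119) and let-7c-2-3p (chr7:118683684-118683705) are neighbours on the plus strand with no annotated host gene. let-7a-1-3p (chr17:16320196-16320217) and let-7d-3p (chr17:16322327-16322348) lie together inside the long noncoding gene LOC120097935. miR-98-3p (chrX:24460721-24460741) lies within the gene Huwe1, which encodes a ubiquitin ligase.

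Of the other 4, miR-7a-1-3p (chr17:6278751-6278772) lies within Hnrnpk, which encodes an RNA-binding protein, and miR-350 (chr13:91244549-91244572, minus strand) within Cep170, which encodes a centrosomal protein. miR-497-5p is at chr10:55450172-55450193. miR-1839-5p (chr1:144893859-144893880) comes from Scarna15, a locus named as a small Cajal body RNA. Across the 405 tested miRNAs with a RefSeq sequence, the difference between arms was nearly unrelated to GC content (Spearman rho 0.09) or length (rho -0.02), as a description over miRNAs, which are not replicates.

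Libraries of controls had rank correlations of 0.924 to 0.986 with each other, and none were identical. Arm held 12.8% of the variance of log2 CPM (reads of a miRNA scaled to a common library total, with TMM factors), where 92378 assignments of the rats gave a 1-sided exact p of 0.0160. Reads per library had a median of 6316765 (2698611 to 16642937) in the infancy arm and 4038550.5 (967832 to 7826996) in the adult arm, with an adjusted exact p of 0.285 for the difference in means. The hippocampal label was checked by a few markers, which speak for neural tissue and do not single out the hippocampus. miR-9a-5p, a neural miRNA, took 24.0% to 40.8% of the reads, and liver-specific miR-122-5p stayed under the read minimum. miR-206-3p, miR-133a-3p and miR-10b-5p, chosen as markers to be low, passed the minimum. Adult-arm control 3-S10 had the most miR-133a-3p (396 CPM) and miR-10b-5p (116 CPM). It had 7082 CPM of miR-128-3p, beside 22424 or more in every other control.

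Several libraries stood apart. The infancy-arm controls 3-S32 and 3-S40 had miR-9a-5p shares of 39.9% and 40.8%, against 24.0% to 32.1% in the other 17. With both left out, the arm held 10.4% of the variance (exact p = 0.0755), and 5 miRNAs were called in place of 9. The adult-arm controls 3-S10 and 3-S12 had the fewest reads, 1019430 and 967832. Adult-arm control 3-S7 stood apart in its let-7 guide strands, described with them.

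**Figure D1:**
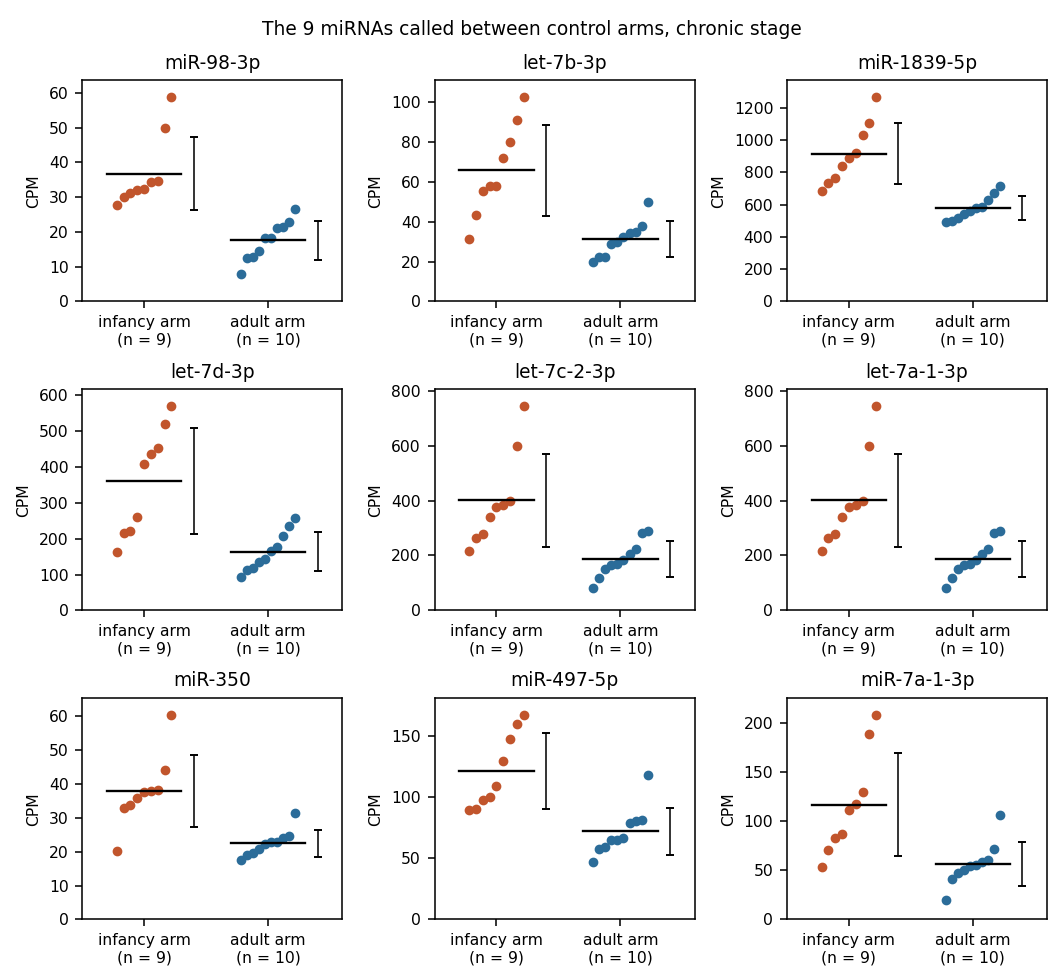
Level (CPM, TMM scaled) of the 9 called miRNAs in each control, infancy arm at left and adult arm at right of each panel. Points are rats, the horizontal line is the mean and the bar beside it 1 SD. For miR-98-3p the 9 infancy-arm rats sit between 27.6 and 58.9, above all 10 adult-arm rats.

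miR-98-3p, the passenger strand of miR-98, separated the arms completely. Its level ran from 27.6 CPM to 58.9 CPM with a median of 32.5 in the infancy arm, and from 7.92 to 26.6 with a median of 18.1 in the adult arm. All 9 infancy-arm rats were above every adult-arm rat, 3-S40 and 3-S39 being the highest and the shallow adult library 3-S10 the lowest. The log2 fold change was 1.07 ± 0.21 (standard error; adjusted p = 0.0110, edgeR). It is a rare strand, with 11 to 585 raw reads per library, and its value without 3-S32 and 3-S40 was 0.99 (adjusted p = 0.0376).

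let-7b-3p, from the hairpin of an abundant let-7 guide, differed by as much. Infancy-arm rats had 31.5 to 103 CPM (median 58.2) and adult-arm rats 20.1 to 50.2 (median 31.1), a log2 fold change of 1.07 ± 0.21 (adjusted p = 0.0110). The whole adult arm lay below 7 infancy-arm rats, while 3-S35 and 3-S36 fell within its range. Leaving out 3-S32 and 3-S40 gave 0.97 (adjusted p = 0.0376). miR-98-3p and let-7b-3p were the 2 miRNAs called in all 12 alternative fits and in all 19 fits that left out 1 rat.

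let-7d-3p had the largest log2 fold change of the called miRNAs, 1.14 ± 0.25 (adjusted p = 0.0139). It measured 163 to 571 CPM (median 407) in the infancy arm against 92.5 to 259 (median 154) in the adult arm. Every adult-arm rat was exceeded by 6 of the 9 infancy-arm rats, and 3-S35, 3-S36 and 3-S33 did not. Without 3-S32 and 3-S40 it was 1.04, no longer called (adjusted p = 0.0538).

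The sequence shared by let-7a-1-3p and let-7c-2-3p was read at 215 to 746 CPM (median 376) in the infancy arm and 80.7 to 288 (median 176) in the adult arm. Again 6 infancy-arm rats were above the adult range, with 3-S40 and 3-S32 the highest and 3-S35, 3-S36 and 3-S37 inside it. The log2 fold change was 1.10 ± 0.25 under either name (adjusted p = 0.0139). This result leaned on the pair of libraries with the high miR-9a-5p share, since without them it was 0.82 (adjusted p = 0.123).

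miR-1839-5p had the most reads of the 9. It measured 683 to 1268 CPM (median 889.8) in the infancy arm and 489 to 715 (median 571) in the adult arm, and 571 to 11641 raw reads stood behind each value. Only 3-S36 of the infancy arm fell below the highest adult-arm rat, 3-S7. The difference was modest and even, 0.66 ± 0.14 on the log2 scale (adjusted p = 0.0110). Its partner from the same locus, miR-1839-3p, was 0.85 ± 0.23 (adjusted p = 0.0609), at 21.4 ± 8.86 CPM (SD, n = 9) against 11.6 ± 3.57 (n = 10).

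miR-350 had 20.2 to 60.6 CPM (median 37.6) in the infancy arm and 17.4 to 31.5 (median 22.6) in the adult arm. The adult range was exceeded by 8 infancy-arm rats and held 3-S37, and the log2 fold change was 0.75 ± 0.17 (adjusted p = 0.0187). miR-497-5p, a member of the miR-15/16 seed family, which is known for restraining the cell cycle, measured 89.2 to 168 CPM (median 109) against 47.0 to 118 (median 65.7). Its overlap came from one adult-arm rat, 3-S7, at 118 CPM, and the log2 fold change was 0.76 ± 0.18 (adjusted p = 0.0205). The call was lost without 3-S6, 3-S31 or 3-S38 (adjusted p from 0.0502 to 0.0609) and held in the other 16 fits without 1 rat. Of the other tested guides that RefSeq gives with its seed, miR-15b-5p was at 0.65 ± 0.21 (adjusted p = 0.0871), with 5 infancy-arm rats above the adult range. miR-322-5p was at 0.31, miR-195-5p at 0.20 and miR-16-5p at -0.27, and none of the 4 passed the test.

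miR-7a-1-3p, the passenger strand of a miR-7a hairpin, was the least firm call. It measured 53.6 to 208 CPM (median 111) against 19.4 to 106 (median 54.9), and 5 infancy-arm rats were above the adult range. The log2 fold change was 1.04 ± 0.27 (adjusted p = 0.0392), and the call stood in 8 of 12 alternative fits and in 8 of 19 fits without 1 rat. Without 3-S32 and 3-S40 it was 0.90 (adjusted p = 0.142). The guide, miR-7a-5p, was at -0.29 ± 0.24 (adjusted p = 0.496).

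**Figure D2:**
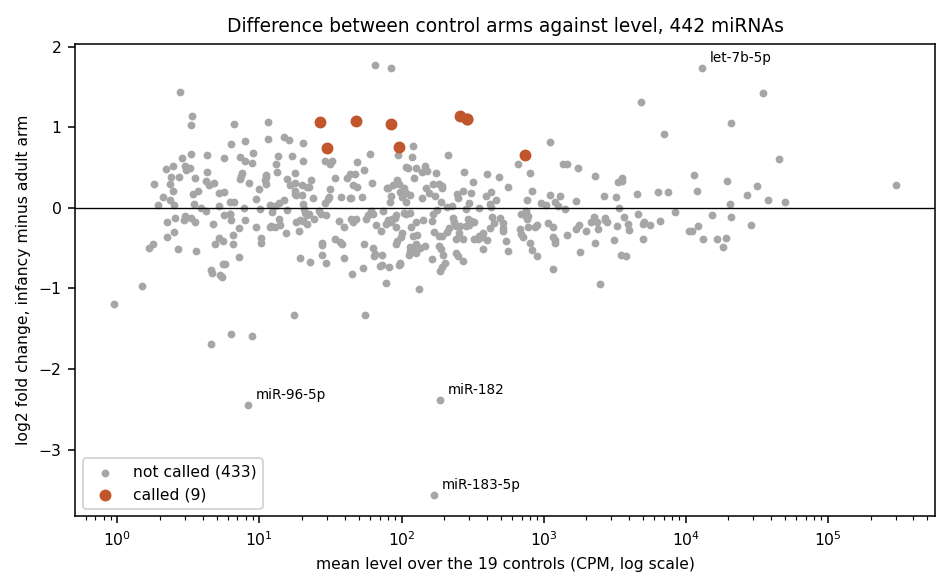
Log2 fold change between control arms (infancy minus adult) against the mean level over the 19 controls (CPM, log axis) for the 442 miRNAs tested. The called miRNAs lie between 0.66 and 1.14, and several uncalled ones are further from 0, down to -3.56 for miR-183-5p.

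Taking the let-7 family strand by strand, 9 of its 11 tested 3p strands were higher in the infancy arm and 5 were called. Their median log2 fold change was 0.58, beside -0.07 over all miRNAs tested. The uncalled ones ran from let-7f-1-3p at 0.58 to let-7i-3p at -0.39, and let-7e-3p was at -0.14. The 9-to-2 split was the same with RLE scaling, with no scaling, with DESeq2 and with voom.

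Guide strands of the family gave large differences whose call depended on the test. Of the 9, 6 were higher in the infancy arm and the median was 0.92. edgeR called 0 of them, with 6 higher and 1 lower at an unadjusted p under 0.05, DESeq2 called 5 higher, and voom called 6 higher and 1 lower. Over all 442 miRNAs edgeR called 9, with 99 at an unadjusted p under 0.05, DESeq2 called 36 and voom 148. let-7b-5p was at 1.74 ± 0.58 (adjusted p = 0.0914), let-7c-5p at 1.42 ± 0.45 (adjusted p = 0.0833) and let-7e-5p at 1.31 ± 0.44 (adjusted p = 0.0914). let-7a-5p, let-7d-5p and let-7f-5p were at 1.05, 0.92 and 0.61, while let-7g-5p, miR-98-5p and let-7i-5p were at -0.11, -0.20 and -0.39. For miR-98 the strands of one hairpin therefore had opposite signs, with the passenger called and the guide not (-0.20 ± 0.19, adjusted p = 0.560).

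**Figure D3:**
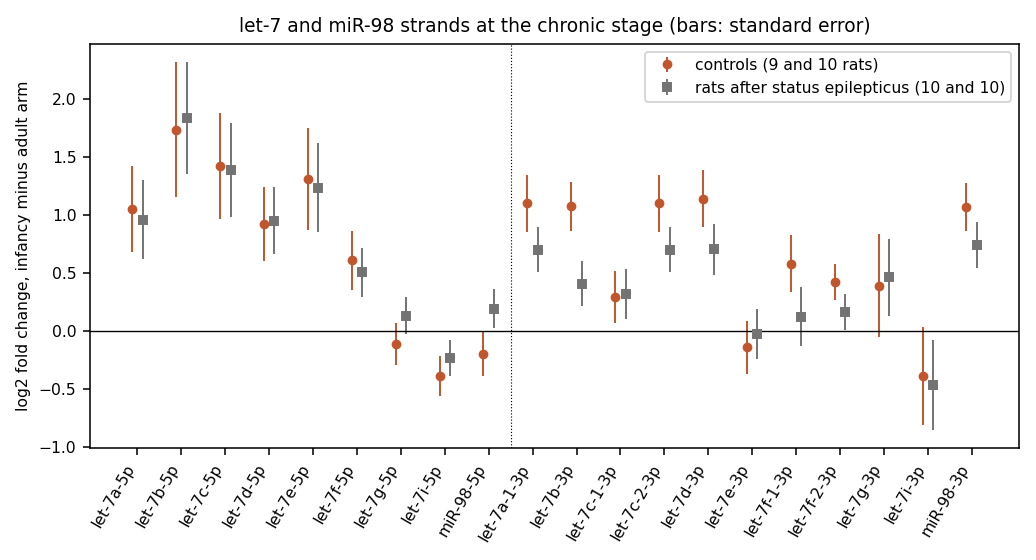
Log2 fold change, infancy minus adult arm, of each let-7 and miR-98 strand in chronic controls (circles) and in chronic SE rats (squares), with standard errors. Guides are left of the dotted line and passengers right of it. let-7b-5p has the widest bar in controls (0.58), while miR-98-3p and let-7b-3p have bars of 0.21.

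Levels of these guides differed several-fold among rats of one arm. let-7b-5p ran from 2629 to 42930 CPM (median 26739) in the infancy arm and from 2586 to 30309 (median 3200) in the adult arm. In the infancy arm 3-S31, 3-S32, 3-S38, 3-S39 and 3-S40 were at 26739 CPM or above and the other 4 at 6487 or below. In the adult arm 3-S7 was at 30309 and the other 9 at 6088 or below. Without 3-S7, let-7b-5p was at 2.55 (adjusted p = 0.0062), let-7c-5p at 1.91 and let-7e-5p at 1.78, and 59 miRNAs were called in place of 9. Without infancy-arm control 3-S35, 38 were called and let-7b-5p was at 1.89 (adjusted p = 0.0369).

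Summed over the 9 guides, the family took 8.37% to 25.1% of the reads (median 22.6%) in the infancy arm and 9.32% to 25.7% (median 11.7%) in the adult arm. Shares over 20% were found in 5 infancy-arm controls and in 1 adult-arm control. In chronic SE rats they were found in 3 of 10 of the infancy arm and 0 of 10 of the adult arm. In the 75 acute and latent libraries the share was 6.82% to 14.4%. The part of this shift in the arm difference was not tested. In 3-S35 and 3-S36 the guide share was 8.37% and 9.65%. There miR-98-3p was higher than in any adult-arm control, while let-7b-3p, let-7d-3p, let-7a-1-3p and let-7c-2-3p were within the adult range. Adult-arm control 3-S7, with a share of 25.7%, was the highest of its arm for let-7d-3p, miR-1839-5p, miR-350, miR-497-5p and miR-7a-1-3p. It was not the highest for miR-98-3p, let-7b-3p, let-7a-1-3p or let-7c-2-3p.

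**Figure D4:**
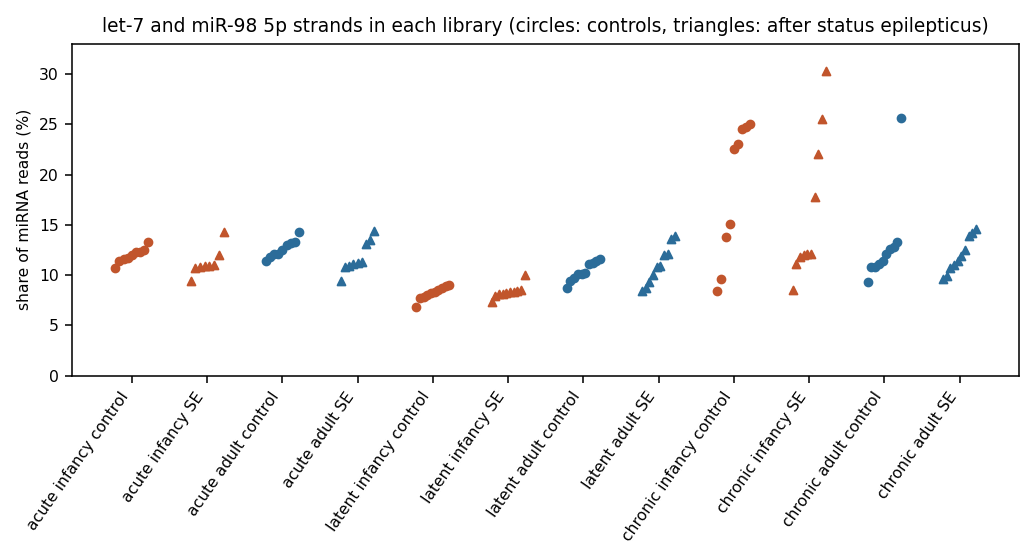
Share of miRNA reads held by the 9 let-7 and miR-98 guides in each library of the series, by stage, arm and treatment. Every acute and latent library is at or below 14.4%, while 5 infancy-arm and 1 adult-arm chronic controls are over 20%.

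Among the other listed groups of miRNAs, edgeR called no member. DESeq2 and voom called some, for example 4 and 27 of the 76 tested in the Dlk1-Dio3 cluster and 0 and 4 of 6 in the miR-29 family. Over all 442 miRNAs these tests called 36 and 148, so the counts are not a result about the cluster. Both strands of the miR-29 family, whose guides rise strongly as the brain matures, were higher in the infancy arm in 6 of 6 (median 0.30), and without scaling in 4 of 6. miR-29a-3p had 27360 to 39028 CPM (median 36005) against 25383 to 35573 (median 27318), a log2 fold change of 0.27 ± 0.12 (adjusted p = 0.164). Above the adult range were 5 infancy-arm rats. The 8 tested members of the X-linked cluster that holds miR-322-5p, miR-450a-5p and miR-351-5p, which is high in young tissue, split into 2 higher and 6 lower (median -0.39), also under every scaling tried. Within that cluster miR-450a-5p measured 86.2 to 172 CPM (median 148) against 97.6 to 421 (median 212), -0.78 ± 0.22 (adjusted p = 0.0672), and its neighbour miR-450b-5p was at -0.69 ± 0.19 (adjusted p = 0.0609). Their ranges overlapped, and with no composition scaling miR-450a-5p was called lower, at -0.92.

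Of the 76 tested miRNAs of the imprinted Dlk1-Dio3 cluster, 57 were lower in the infancy arm and 19 higher, with a median of -0.15 beside -0.07 over all miRNAs. miR-376b-5p, a member, measured 69.3 to 300.3 CPM (median 134) against 155 to 316 (median 245). Below the adult range were 7 infancy-arm rats, but 3-S35 was near its top, and the log2 fold change was -0.73 ± 0.22 (adjusted p = 0.0744). miR-329-3p of the same cluster went the other way, at 0.66 ± 0.20 (adjusted p = 0.0744). Neuron-enriched miRNAs split 5 and 5, the miR-17 to miR-92 families 4 and 5, and the miR-30 family 2 and 3. With voom these splits were 3 and 7, 4 and 5, and 1 and 4. miR-30b-5p in the last was at 0.55 ± 0.17 (adjusted p = 0.0817), with 6 infancy-arm rats above the adult range.

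Activity-regulated miRNAs included 3 higher and 5 lower, and 5 higher and 3 lower with voom. miR-212-3p, which neuronal activity induces, measured 138 to 205 CPM (median 181) against 105 to 188 (median 129.7), and its log2 fold change was 0.45 ± 0.14 (adjusted p = 0.0744). miR-132-5p, cut from the same primary transcript, was at -0.31 ± 0.14 (adjusted p = 0.174). The adult range was exceeded by 4 infancy-arm rats for miR-212-3p, and 3 were below it for miR-132-5p.

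Markers of other cell types were looked at as whole lists. Endothelial and vessel wall miRNAs were lower in 5 of 6 (median -0.42), with summed levels of 10268 to 29774 CPM in the infancy arm and 11313 to 37660 in the adult arm. miR-126a-3p, the endothelial miRNA, had 989 to 1937 CPM (median 1430) against 1551 to 3368 (median 1999), and 7 infancy-arm rats lay below the adult range (log2 fold change -0.55 ± 0.16, adjusted p = 0.0744). Its hairpin partner miR-126a-5p was at 0.26. Oligodendrocyte miRNAs were lower in 5 of 7 (median -0.20), with miR-338-3p, which promotes oligodendrocyte differentiation, at -0.52 ± 0.17 (adjusted p = 0.0914). Summed oligodendrocyte levels were 4211 to 10136 CPM in the infancy arm and 5346 to 13725 in the adult arm.

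Myeloid markers were lower in 5 of 6 (median -0.13) and erythroid ones in 4 of 4 (median -0.43), though with voom the erythroid split was 2 and 2. Summed levels overlapped, at 423 to 845 CPM against 449 to 751 for the myeloid list and 248 to 524 against 162 to 1044 for the erythroid one. Choroid plexus and ependymal markers split 4 and 5, and 7 and 2 with voom. The 5 tested miRNAs of the Htr2c intron, a gene high in choroid plexus, were all lower (median -0.76), with sums of 162 to 7144 CPM against 186 to 13676. With voom all 5 were lower as well (median -0.31). The highest sums rested on single rats, since miR-1298 was at 6039 CPM in 3-S37 and 11971 in 3-S13 while the medians were 203 and 263. Leaving out 3-S13 alone, with 3-S37 kept, turned miR-1298 from -0.76 to 1.67 (adjusted p = 0.180). The part of these cell types in the arm difference was not tested.

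Liver and muscle miRNAs split 2 and 3 (median -0.60, and 0.25 with voom), with sums of 169 to 521 CPM against 195 to 1502. miR-133a-3p, a muscle miRNA, was at -1.33 ± 0.45 (adjusted p = 0.0914), and its highest value was 396 CPM in 3-S10, beside a median of 40.5 in the adult arm. Endocrine markers were lower in 3 of 3 (median -0.18), with voom in 1 of 3, and caudal Hox-cluster miRNAs in 2 of 2 (median -1.01). Their sums overlapped, at 7983 to 25606 against 10149 to 30949 CPM and at 10.4 to 52.8 against 12.4 to 154 CPM.

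The miR-183 cluster, known from sensory cells and the pineal gland, had the largest differences of the named miRNAs, and no call in edgeR. miR-183-5p was at -3.56 ± 1.06 (adjusted p = 0.0744), with 1.07 to 78.9 CPM (median 14.01) in the infancy arm and 3.10 to 2580 (median 46.9) in the adult arm. The value of 2580 belonged to 3-S12, which also had 2189 CPM of miR-182 and 105 CPM of miR-96-5p. Without that rat miR-183-5p was at -0.92, miR-182 at -0.70 and miR-96-5p at -0.65. Over all 4 tested members the median was -2.42, or -0.83 with voom, and summed levels were 29.5 to 253 CPM against 22.3 to 4884.

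The same contrast in rats that the control comparison did not use was then set beside it. Among chronic SE rats, 64 of 442 miRNAs were called between arms (14.5%), 37 higher and 27 lower in the infancy arm. Of the 9 miRNAs called in controls, 8 had the same sign and 7 were called higher there. miR-98-3p was at 0.74 ± 0.20 (adjusted p = 0.0197), miR-1839-5p at 0.56, miR-497-5p at 0.84 and miR-7a-1-3p at 0.88. let-7b-3p was at 0.41 (adjusted p = 0.169) and miR-350 at -0.04 (adjusted p = 0.920). The SE arms differed in age as the control arms did, and in library numbers as well (3-S21 to 3-S30 in the infancy arm, 3-S1 to 3-S5 and 3-S14 to 3-S18 in the adult arm), so these cannot be told apart there either.

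Whether the arm difference itself differed between controls and SE rats was tested as an interaction, and 4 miRNAs were called (0.905%), of which none was among the 9. The differences, controls minus SE rats, were -7.37 for miR-96-5p, -6.26 for miR-182, -5.85 for miR-183-5p and 1.03 for miR-212-3p. Those of the miR-183 cluster rested on few rats. Without adult-arm control 3-S12 they were uncalled, at -5.56, -4.54 and -3.17 (adjusted p from 0.106 to 0.240). miR-212-3p was then at 1.01 and also uncalled (adjusted p = 0.0783). Adult-arm SE rat 3-S3 had 522 CPM of miR-212-3p, beside 130 to 268 in the others of its group. Without 3-S3 the difference of miR-212-3p was 0.81 (adjusted p = 0.0193). Without infancy-arm SE rat 3-S22, which had 9146 CPM of miR-182, the 3 miRNAs of the miR-183 cluster were again uncalled (adjusted p from 0.155 to 0.446).

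At the earlier stages, in other rats, more miRNAs differed between control arms. Between arms, 256 of 383 miRNAs were called among acute controls (66.8%) and 241 of 406 among latent controls (59.4%). The median absolute log2 fold change was 0.62 at the acute, 0.46 at the latent and 0.30 at the chronic stage. Of the 253 miRNAs called at the acute stage and tested at the chronic one, 6 were called at the chronic stage, 1 of them with the same sign, and 120 of the 253 had the same sign. With 2.04% of all 442 miRNAs called at the chronic stage, the 6 are not a result about the 253. For the 116 miRNAs called at the acute stage that differed there by more than 1 on the log2 scale, the median absolute difference was 1.45 at the acute stage and 0.30 at the chronic stage. They were picked by their acute difference, so a smaller chronic value follows in part from that choice. The chronic median over all miRNAs was 0.30 as well. Counts of each stage were normalized separately, and no test was run between stages.

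Some miRNAs picked from single families also differed less at the chronic stage. miR-29a-3p was at -3.18 in acute controls, -1.93 in latent and 0.27 in chronic ones. miR-338-3p went from -3.70 to -2.10 to -0.52, and miR-351-5p of the X-linked cluster from 1.91 in acute to -0.57 in chronic controls. miR-449a-5p, of ciliated cells, went from 4.47 to 3.27 to 0.64. The guides let-7b-5p (0.11, -0.54 and 1.74) and let-7c-5p (0.29, -0.22 and 1.42) did not take this course.

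**Figure D5:**
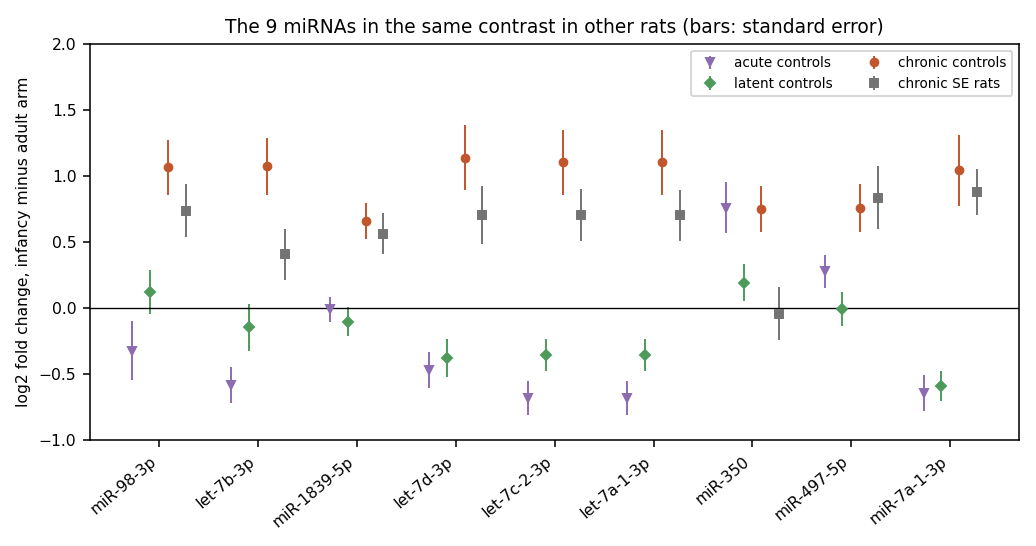
Log2 fold change, infancy minus adult arm, with its standard error, of the 9 called miRNAs in acute, latent and chronic controls and in chronic SE rats. Passengers of let-7a-1, let-7c-2, let-7d and miR-7a-1 lie below 0 at the acute and latent stages and above 0 in both chronic comparisons.

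Of the 9 called miRNAs, miR-350 alone was higher in the infancy arm in the controls of all 3 stages. In acute controls 2 of the 9 were higher in the infancy arm, 1 was called higher (miR-350, 0.76) and 5 were called lower. In latent controls 2 were higher, 0 were called higher and 4 were called lower. With 66.8% and 59.4% of all miRNAs called at these stages, the number called is not a result about the 9. let-7d-3p was at -0.47 in acute and -0.38 in latent controls, let-7c-2-3p at -0.68 and -0.35, and miR-7a-1-3p at -0.64 and -0.59, all called lower. Of the 11 let-7 family 3p strands, 1 was higher in acute controls and 8 were called lower, where at the chronic stage 9 were higher.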

How the data were processed

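Members and lists were chosen with earlier results of these data known. The authors made the libraries from hippocampal RNA with a NEXTflex small RNA kit, trimmed and size-selected reads with Kraken and Cutadapt, then matched them to miRBase entries by seqBuster with at most a mismatch. The genome build is not given in the sources used here. The deposited tables hold raw read counts per miRNA and a signal, the authors' normalized reads, which are counts divided by a size factor per library (DESeq2 1.16.1 per the labels). The normalized reads entered only an alternative fit.

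Counts of the 19 controls were tested with edgeR 4.0.16 in R 4.3.3 (TMM, quasi-likelihood test, Benjamini-Hochberg over 442 miRNAs, threshold 0.05). Standard errors are the log2 fold change over the square root of F. Sequences were matched by name in RefSeq (405 of 442). log2 CPM used a prior count of 2. Named miRNAs are all called ones, the 3 lowest p of each list, the 8 most abundant and those called in the interaction, and others (hairpin partners, seed relatives and the other let-7 strands) were added after their values were seen. Each library is taken as 1 rat. P-values cover the spread between these libraries. Alternatives used DESeq2 1.42.0, limma 3.58.1, other filters, scalings and pseudocounts (1 and 10), and fits without given libraries. The test was checked on simulated counts. Figures were drawn with matplotlib 3.10.9 in Python 3.11.15.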

Additional observations from a re-analysis of the deposited data

Results flagged for a closer look

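Among 67 named miRNAs in 2 arms, 134 groups were looked at, and in 32 of them 1 rat stood far from the others of its arm. The nominal rate of the rule, about 1 in 20, assumes normal values and independent groups. The groups here share the same libraries, so no excess over chance can be read from the count. These values are given with no explanation, in CPM.

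Adult-arm control 3-S7 was far from its arm for miR-350 (31.5), miR-497-5p (118), miR-20a-5p (277), miR-212-3p (188), let-7c-5p (70017), let-7b-5p (30309) and let-7e-5p (10016), in each case as the highest. Adult-arm control 3-S10, one of the libraries with the fewest reads, was the highest for miR-758-3p (138), miR-134-5p (778), miR-142-3p (162), miR-144-3p (36.01), miR-10b-5p (116), miR-133a-3p (396), miR-133b-3p (67.0) and miR-1b (992). Adult-arm control 3-S8 was the lowest for miR-19a-3p (7.51) and the highest for miR-126a-3p (3368) and miR-7a-5p (25841). Adult-arm control 3-S12 stood apart for miR-182 (2189), miR-183-5p (2580) and miR-96-5p (105), and 3-S13 for miR-34b-3p (73.1), miR-448-5p (36.8) and miR-1298 (11971). miR-144-5p was far from the rest in 3-S11 (160) of the adult arm and 3-S40 (80.4) of the infancy arm.

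In the infancy arm, 3-S35 stood apart for miR-376b-5p (300.3), miR-764-3p (15.5) and miR-7a-5p (21431), 3-S37 for miR-1298 (6039) and miR-182 (170.3), and 3-S32 for miR-1b (432).

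The arm difference of controls differed from that of SE rats for miR-212-3p (1.03), miR-182 (-6.26), miR-96-5p (-7.37) and miR-183-5p (-5.85), on the log2 scale in the interaction test of edgeR. Without 3-S12 the 3 miRNAs of the miR-183 cluster lost their call, and miR-212-3p stayed at 1.01 with an adjusted p of 0.0783.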

How the results depend on the processing

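No paired analysis was possible because the labels give the arms no shared replicate numbers. Of the 9 calls, DESeq2 (36 calls, 12 of them lower), voom (148, 72 lower) and the fit of all 4 chronic groups (29, 10 lower) kept all 9. Study thresholds gave 79. Leaving out 3-S32 and 3-S40 gave 5, a set without let-7d-3p, let-7c-2-3p, let-7a-1-3p and miR-7a-1-3p, and lowered the variance share to 10.4% (p = 0.0755). Without composition scaling 6 were called, 5 higher and 1 lower (miR-450a-5p), leaving out miR-1839-5p, miR-350, miR-497-5p and miR-7a-1-3p. There 33.9% of miRNAs were higher in place of 45.7%, and the median moved to -0.22 from -0.07. With voom 221 were higher and 221 lower. Leaving out 1 rat gave 7 to 59 calls in controls (59 without 3-S7 and 38 without 3-S35), 44 to 76 in SE rats, 246 to 263 in acute and 233 to 252 in latent controls, 0 to 7 in the interaction, and a variance share of 11.2% to 16.7%. limma-trend with a pseudocount of 1 gave 41 calls in SE rats. The interaction had 1 call with DESeq2 and 85 with voom. Leaving out 3-S10 and 3-S12, chosen after the data were seen, gave 8.

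Among the 67 named miRNAs, signs turned for uncalled ones. With voom these were miR-134-5p (0.16), miR-451-5p (0.075), miR-7b (0.030), miR-375-3p (0.029), miR-133b-3p (0.25), miR-26a-5p (-0.023), miR-128-3p (-0.061) and miR-9a-3p (-0.049), without scaling miR-150-5p (-0.0098) and miR-26a-5p (-0.048), without 3-S32 and 3-S40 miR-9a-5p (-0.038), and without 3-S10 and 3-S12 miR-134-5p (0.13), miR-26a-5p (-0.019) and miR-128-3p (-0.011). Leaving out 1 rat (3-S10, 3-S13, 3-S39 or 3-S40) turned miR-134-5p (range -0.31 to 0.12), miR-144-3p (-0.57 to 0.026), miR-375-3p (-0.28 to 0.19), miR-26a-5p (-0.032 to 0.14), miR-128-3p (-0.031 to 0.17), miR-448-5p (-1.14 to 0.069) and miR-1298 (-2.86 to 1.67). The causes were not tested. Depth limits the rare strands most, with 11 reads of miR-98-3p and 22 of miR-350 in the library with the fewest.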
